A study of Mus musculus with 14 samples.

Results

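The forkhead genes encode transcription factors that share a winged-helix DNA-binding domain, the forkhead box, and 38 of them in the mouse genome were examined for H3K27me3, the histone H3 modification that Polycomb repressive complex 2 (PRC2) deposits at silent genes. They were chosen by gene name. Each was represented by the peaks of the deposited H3K27me3 table that lay within 5 kb of its RefSeq gene body, which gave 163 of the 74458 peaks, with no peak counted for more than 1 forkhead gene. A peak was found for 35 of the 38 genes, against 16313 of 21887 protein-coding genes. No peak of the table lay within 5 kb of Foxh1, Foxk2 or Foxm1, so that no level was measured for these 3 genes and none was tested. Where a median or a level at the start site includes one of them, it is entered as 0.

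H3K27me3 was profiled by Cut&Tag, in which the transposase Tn5 is tethered to an antibody on chromatin and inserts sequencing adapters beside the mark. The cells were G4 mouse embryonic stem cells (mESCs), an F1 hybrid line of 129/Sv and C57BL/6 mice, kept on CD1 feeder cells in medium with leukaemia inhibitory factor (LIF). In each line CRISPR-Cas9 had removed an anchor of Polycomb-associated loops from both alleles. The anchor lay at the Hoxa cluster in 3 libraries, at Wnt6 in 2 and at Hmx1 in 2. The table has no column for unedited cells, so the libraries of each deletion were set against those of both other deletions pooled, and the 3 comparisons share their libraries. The methods describe clones picked for each deletion, so that a difference between deletions cannot be told apart from a difference between clones, and p-values measure only the spread between these libraries, which may be technical.

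Totals over all peaks ranged from 6016500 to 36563541 counts per library, and the forkhead peaks held 0.706% to 0.769% of them although they were 0.219% of the peaks. A forkhead peak had a median of 95 counts in the shallowest library and 571 in the deepest. Levels are given as CPM, in which each library is brought to the same depth, with TMM factors that correct for a few strong regions taking a larger share of a library. Each deleted stretch was taken from these counts, on the chromosome of its anchor. It was the longest run of peaks at which every library of that deletion was below 10% of the mean of the others. The stretches at Hoxa, Wnt6 and Hmx1 spanned 46, 34 and 11 peaks and held at most 0.161%, 0.540% and 0.325% of the level of the other libraries. These low levels follow in part from the rule, so they are not an independent test of the library labels. All 12 measured silent lineage regulators (Gata4, Sox17 and the like) were among the 10% of protein-coding genes with the most H3K27me3 per kb, against 1 of 15 pluripotency genes and 4 of 13 fibroblast genes that feeder cells use.

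Forkhead factors bind DNA mostly as monomers through a recognition helix, and several of them, above all the Foxa factors, can bind sites in closed chromatin. Most are switched on in restricted lineages: Foxa factors in endoderm and floor plate, Foxf and Foxl1 in gut and lung mesenchyme, Foxc factors in mesoderm, vessels and eye, Foxd1 in kidney stroma, Foxe3 in lens, Foxl2 in ovary, Foxj1 in ciliated cells. Others act in most cells, among them the Foxo factors that insulin signalling keeps out of the nucleus and Foxm1, a driver of mitotic genes. In embryonic stem cells, PRC2 marks CpG-rich promoters of silent developmental regulators, while promoters in use carry little H3K27me3. On this background knowledge the genes were sorted into 25 silent developmental genes, 11 broadly expressed genes (Foxj2, Foxj3, Foxk1, Foxk2, Foxm1, Foxn2, Foxn3, Foxo1, Foxo3, Foxp1 and Foxp4) and 2 genes of pluripotent cells and the early embryo, Foxd3 and Foxh1. The sorting was done with earlier results of these data in view. Differences in level between the classes are therefore descriptions and not an independent test.

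Sequence just before the start site is shown for 4 of them. They span the range of CpG content among the genes with a promoter sequence and differ widely in H3K27me3, without reaching its highest levels. Each run holds the 250 bases before the RefSeq start site in build GRCm38.p6 (mm10), read 5′ to 3′ on the strand of the gene, with CG dinucleotides in capitals. Foxc1 (chr13:31806396-31806645, plus strand) and Foxk2 (chr11:121259737-121259986, plus strand) were both rich in CpG, with 29 and 48 CG in the printed run. Foxi2 (chr7:135410117-135410366, plus strand) held 3 CG. Foxp4 (chr17:47924633-47924882, minus strand), the forkhead gene that changed most between deletions, held 27.
Foxc1: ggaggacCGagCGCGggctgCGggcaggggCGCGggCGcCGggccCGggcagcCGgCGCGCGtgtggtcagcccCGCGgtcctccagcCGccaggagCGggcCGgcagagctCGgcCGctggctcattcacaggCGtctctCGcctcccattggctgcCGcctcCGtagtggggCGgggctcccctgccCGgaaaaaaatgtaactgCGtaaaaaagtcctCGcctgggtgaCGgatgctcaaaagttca
Foxk2: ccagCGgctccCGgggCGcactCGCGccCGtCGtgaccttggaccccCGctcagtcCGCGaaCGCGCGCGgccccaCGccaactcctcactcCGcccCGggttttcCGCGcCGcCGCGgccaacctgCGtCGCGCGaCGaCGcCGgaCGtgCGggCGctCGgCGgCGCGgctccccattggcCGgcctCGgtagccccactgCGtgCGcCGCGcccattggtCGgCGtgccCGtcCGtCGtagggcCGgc
Foxi2: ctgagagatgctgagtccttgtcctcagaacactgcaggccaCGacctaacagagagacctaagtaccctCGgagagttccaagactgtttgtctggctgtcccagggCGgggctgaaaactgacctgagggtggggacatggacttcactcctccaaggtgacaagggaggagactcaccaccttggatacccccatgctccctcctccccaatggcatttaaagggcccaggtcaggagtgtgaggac
Foxp4: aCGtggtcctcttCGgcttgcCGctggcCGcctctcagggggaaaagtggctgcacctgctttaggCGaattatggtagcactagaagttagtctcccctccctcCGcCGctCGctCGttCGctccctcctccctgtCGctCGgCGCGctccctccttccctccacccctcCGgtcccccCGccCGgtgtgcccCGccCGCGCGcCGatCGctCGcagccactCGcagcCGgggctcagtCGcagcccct
The peaks within 2.5 kb of these start sites averaged 222 CPM at Foxc1 and 177 CPM at Foxi2 over the 7 libraries, whereas those at Foxp4 averaged 8.77 CPM and Foxk2 had none. The most and the least CpG-rich of the 4 sequences thus belonged to a gene without a peak and to a heavily marked gene, respectively.

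The silent developmental genes carried far more H3K27me3 than the broadly expressed ones. Because gene lengths differ, levels between genes were compared as CPM per kb of the gene body plus its 10 kb of flanks. On this scale the median silent gene reached 21.8 CPM per kb ± 1.64 (SD, n = 7 libraries), and the median broadly expressed gene 0.238 ± 0.00976, with Foxk2 and Foxm1 entered as 0. The ratio of both medians was 91.8 ± 5.44 (SD, n = 7) and lay between 82.4 and 99.3 in single libraries, so that all 7 libraries gave the same order. Of the silent genes, 20 of 25 were among the top 10% of protein-coding genes, which begins at 3.47 CPM per kb, and 18 were among the top 5%. None of the 11 broadly expressed genes reached the top 10%.

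The size of that ratio depended on the scale. Most broadly expressed forkhead genes are longer than the silent ones, so that their peaks are spread over more sequence. Counting only peaks within 2.5 kb of the start site, which the promoter table gives for 16 silent and 8 broadly expressed genes, the medians were 207 CPM ± 11.7 and 15.1 CPM ± 1.23 (SD, n = 7 libraries), a ratio of 13.8. The listed start site of Foxn3, on the minus strand at 99450074, lies inside its gene body, which ends at 99563667. Its start-site level of 0 is thus not that of the outer end of the gene. The listed start sites of Foxa1, Foxn1, Foxn4 and Foxp1 also lie inside the gene body, nearer to its outer end. Per kb of peak alone the ratio was 6.25. The direction was the same on each scale.

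Per kb of gene window, silent forkhead genes stood slightly above another family of Polycomb targets and broadly expressed ones near housekeeping genes, as described by medians only. The 12 LIM homeobox genes (Lhx1, Isl1 and the like), regulators of neuronal and organ identity, had a median of 15.6 CPM per kb ± 0.769 (SD, n = 7), with 11 of 12 in the top 10%. The 16 housekeeping genes had a median of 0.158 ± 0.0135 CPM per kb, and all protein-coding genes a median of 0.21 CPM per kb. At start sites the silent and LIM homeobox medians were again close, at 207 CPM ± 11.7 and 192 CPM ± 14.6 (SD, n = 7), the latter over 11 genes. The broadly expressed forkhead genes, at 15.1 CPM ± 1.23, were higher there than the 12 housekeeping genes with a start site in the promoter table, at 2.18 CPM ± 0.186, and than all protein-coding genes, at 3.80 CPM.

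Foxf1, a mesenchymal regulator of gut and lung, was the most heavily marked of the forkhead genes at 44.3 CPM per kb ± 8.71 (SD over 7 libraries, lowest 34.4, highest 53.8). Its tallest peak, chr8:121083457-121086961, spanned 3504 bp and alone held 304 CPM. Foxc1, which patterns mesoderm and the eye, followed at 33.9 ± 2.08 CPM per kb, with 30.8 in the lowest and 36.3 in the highest library. Foxe1, a thyroid regulator, lay at 30.3 ± 1.38 CPM per kb, between 28.6 and 32.8. The spread of Foxf1 was wider than that of Foxc1 and Foxe1, with the Hoxa deletion libraries below all others, as given with the comparisons. In those 3 libraries Foxf1, at 36.3, 34.4 and 35.3 CPM per kb, was close to Foxc1, at 36.3, 32.4 and 33.9. Close behind Foxe1 stood Foxl2 at 30.0 ± 1.70, Foxd2 at 29.9 ± 1.44 and Foxa1 at 28.1 ± 1.52 CPM per kb, whose ranges over libraries overlapped that of Foxe1.

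**Figure D1:**
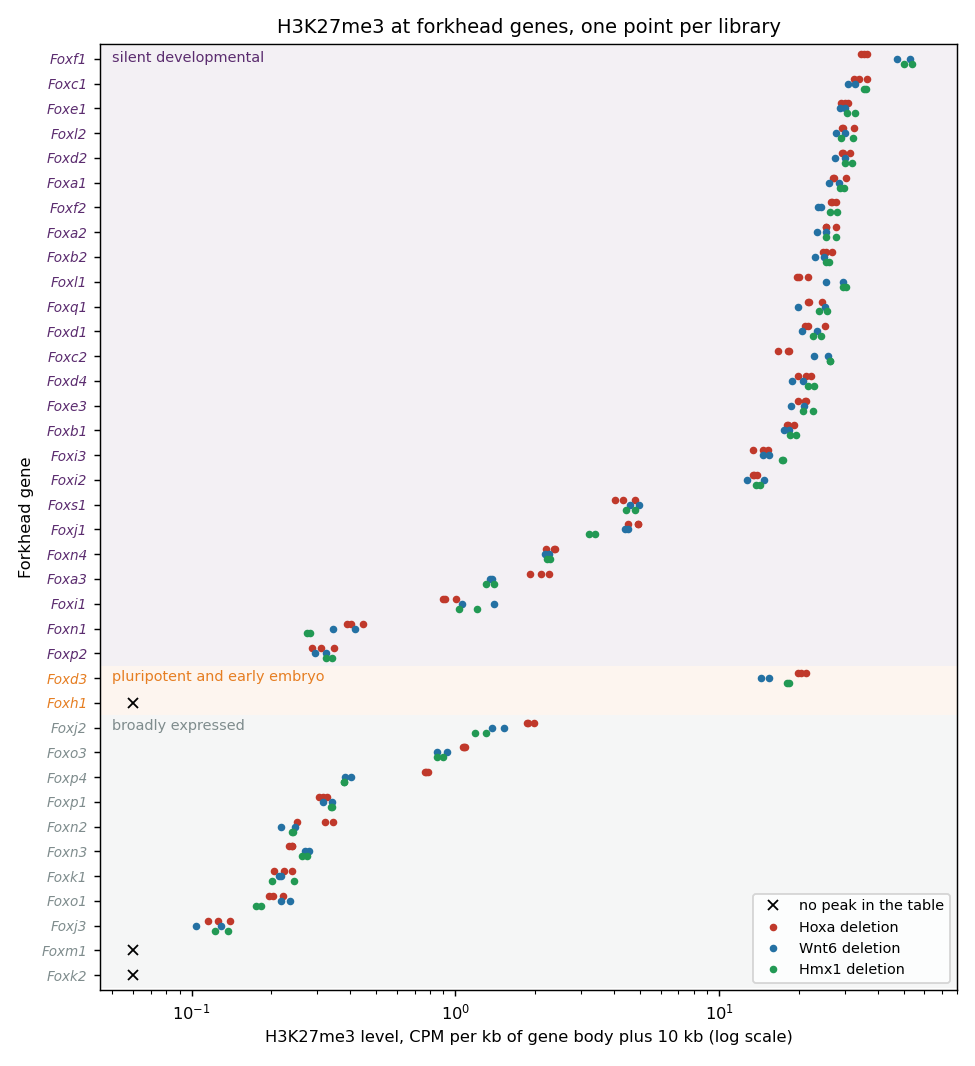
H3K27me3 level of each forkhead gene (vertical axis, by class) as CPM per kb of gene body plus 10 kb (horizontal axis, log scale), with a point for each of the 7 libraries coloured by deletion and a cross for genes without a peak. Most silent genes sit above 10 CPM per kb in every library, the broadly expressed genes lie below 2, and the 3 Hoxa deletion libraries stand apart at Foxf1, Foxc2, Foxl1 and Foxp4.

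At the low end, 5 silent genes were outside the top 10%. Foxp2, a regulator of neural circuits for speech and song, had 0.317 ± 0.0225 CPM per kb, Foxn1, the thymic epithelium factor, 0.364 ± 0.0672 and Foxi1, which specifies ionocytes, 1.07 ± 0.177. These values have unlike make-up. Foxp2 is 541 kb long and held a peak of 121 CPM at one end of its gene body (chr6:14899415-14901948), whereas the single peak of Foxi1 had 14.8 CPM and the tallest of the 4 peaks of Foxn1 had 4.91 CPM. Foxa3 and Foxn4 were the others, at 1.67 ± 0.408 and 2.28 ± 0.0753 CPM per kb.

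Among the broadly expressed genes, Foxj2 had the highest level at 1.59 ± 0.321 CPM per kb, followed by Foxo3, a FoxO factor of stress resistance, at 0.965 ± 0.109. The lowest with a peak was Foxj3 at 0.125 ± 0.0125 CPM per kb. Foxp1 departed from its class at the start site. Over its 597 kb it had only 0.326 ± 0.0153 CPM per kb, but the peaks within 2.5 kb of its start site held 139 CPM ± 9.54 (SD, n = 7), close to the 166 ± 25.6 CPM of Foxd3. Foxo3 also had a marked start site, at 94.0 ± 10.4 CPM.

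Foxd3 and Foxh1, both used in pluripotent cells and the early embryo, were far apart. Foxh1, which carries Nodal signals through Smad2, had no peak within 5 kb. Foxd3, a factor of the epiblast and neural crest, had 5 peaks and 18.3 ± 2.55 CPM per kb, within the top 1.25% of protein-coding genes, and its tallest peak (chr4:99655846-99658228) covered the start site with 125 CPM. Its level was thus that of the silent class, although the gene is known to be used in mESCs.

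The tallest peak covered the start site in 11 of 16 silent genes, 5 of 7 broadly expressed genes and Foxd3, among genes with both a peak and a start site in the promoter table. Of the broadly expressed genes not counted, Foxo1 has its tallest peak from 52268338, directly beside its start site at 52268337. Foxn3 was measured from its internal start. Most heavily marked silent genes are short, with several peaks across the body and both flanks. At Foxa1 and Foxa2 the tallest peak lay 3.31 and 2.66 kb downstream of the listed start site, inside the gene. That of Foxa1, on the minus strand at 57546111, itself lies inside the gene body, which ends at 57548029. Some windows hold a neighbour or a noncoding gene as well, such as Fendrr at Foxf1 and Foxd2os, which reaches the windows of both Foxd2 and Foxe3, and counts there cannot be assigned to either gene alone.

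The CpG content of promoters gave no single order of the forkhead genes by H3K27me3. In the 300-base promoter window of RefSeq, from 250 bases before to 50 after the start, 25 of the 38 genes had a sequence. The silent genes held a median of 18.5 CG dinucleotides (range 5 to 32, n = 16) and the broadly expressed genes 34.0 (range 6 to 59, n = 8), both above the median of 13.0 over 17492 protein-coding promoters. Spearman's correlation of the CG count with the level of peaks at the start site was -0.157 over the 25 forkhead genes, which are not independent replicates, while it was 0.565 over all protein-coding promoters. Within the 16 silent genes it was 0.292 and within the 8 broadly expressed genes -0.156, and the pooled value mixes classes that differ in both measures. Foxk2 had the most CG, 59, and no peak. At the CG-poor end, Foxi2 with 5 CG had 177 CPM, while Foxi1 with 6 and Foxn1 with 8 CG had 14.8 and 2.26 CPM. The CG count covers the 300 bases only, and peaks reach beyond them. The Foxi2 peak runs from 135410004 to 135412744, mostly downstream of the start at 135410367, where CG was not counted. Foxn3 with 6 CG had no peak within 2.5 kb of its listed start site, which lies inside the gene body. The CG range, median and correlations of the broadly expressed genes include this internal start and that of Foxp1. The letters TGTTTAC, the core that forkhead factors recognise, were searched on both strands and occurred in 1 of the 25 windows (Foxa1), or 4.0%, and in 2.93% of all promoter windows.

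**Figure D2:**
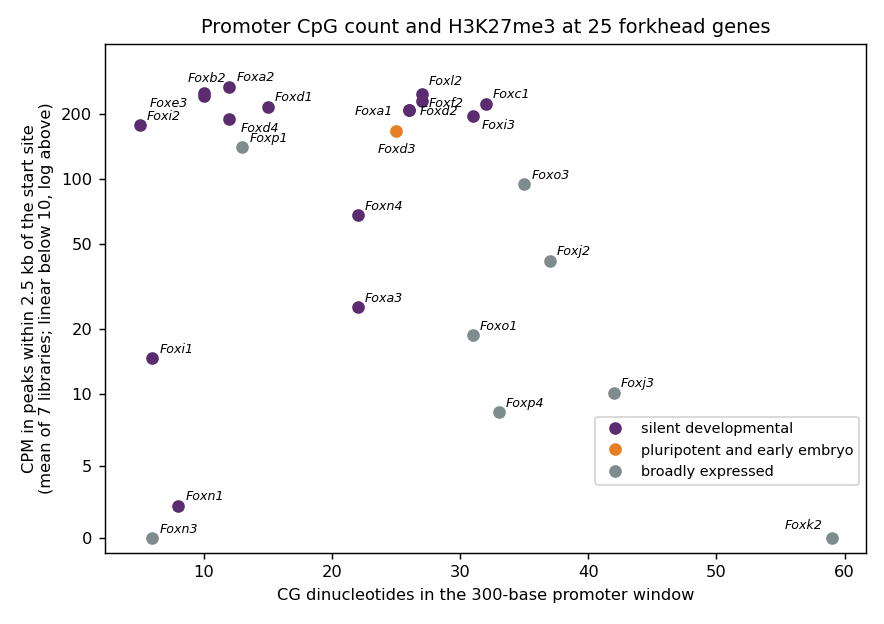
CG dinucleotides in the 300-base promoter window (horizontal axis) against the mean CPM over 7 libraries of peaks within 2.5 kb of the start site (vertical axis, linear below 10 and log above) for 25 forkhead genes, coloured by class. Silent genes with few and with many CG both reach about 200 CPM, and the CG-rich broadly expressed genes lie lower, down to Foxk2 with 59 CG and no peak.

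To ask whether removal of a loop anchor altered H3K27me3 at forkhead genes, counts were summed per gene and fitted with edgeR over all 27982 tested genes, and a gene was called at an adjusted p under 0.05 with no minimum on the fold. In the Hoxa deletion 9 of 35 forkhead genes were called. Of these, 6 were higher, which is 17.1% of the 35, where 10.6% of all tested genes were called higher. They were Foxp4, Foxa3, Foxj2, Foxd3, Foxo3 and Foxj1, that is 3 of 9 broadly expressed genes, 2 of 25 silent genes and Foxd3. The 3 lower genes were Foxf1, Foxc2 and Foxl1, where 5.58% of all tested genes were called lower. The median log2 fold change was 0.01 over the 35 genes and 0.05 over all tested genes. At an unadjusted p under 0.05 there were 14 of the 35, against 27.3% of all genes. Separation of the Hoxa deletion libraries from all others also occurred without a call, above at Foxn2 and below at Foxi1 and Foxn3.

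Foxp4 showed the largest change. This broadly expressed factor, known from lung and heart development, had 51.8, 52.3 and 53.3 CPM in the 3 Hoxa deletion libraries, 25.8 and 27.1 CPM in the Wnt6 deletion and 25.5 and 25.6 CPM in the Hmx1 deletion. All Hoxa deletion libraries were thus above all others, with a 2.01-fold higher level (log2 fold change 1.01 ± 0.09 SE, edgeR adjusted p = 7.37e-11). It was the only forkhead gene past a log2 fold change of 1, the fold minimum that the study used. The level remained that of its class, as even the Hoxa deletion libraries reached at most 0.790 CPM per kb.

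The change at Foxp4 (chr17:47867133-47924632) extended over the gene. All 8 of its peaks had a log2 fold change above 0 in the Hoxa deletion, from 0.62 to 1.34, and 6 of 8 passed an adjusted p of 0.05. Single peaks were called with the fold minimum and this adjusted p together. By this rule 4 of the 163 forkhead peaks were called in the Hoxa deletion, where 1.55% of all tested peaks were. All 4 lay at Foxp4 and were higher. At chr17:47924100-47924809, over the start site, the Hoxa deletion libraries had 10.2, 14.3 and 15.2 CPM, the Wnt6 deletion 6.59 and 5.46 CPM and the Hmx1 deletion 5.24 and 4.37 CPM (log2 fold change 1.34 ± 0.16 SE, adjusted p = 2.38e-08). The groups did not overlap there. The called peaks chr17:47921314-47922017, chr17:47907199-47907505 and chr17:47887732-47888326, all inside the gene body, had log2 fold changes of 1.23, 1.29 and 1.03. The 27 peaks within 100 kb outside the window had a median log2 fold change of 0.37, from -0.27 to 1.18, and 5 of them passed the adjusted p without a fold minimum, while the chromosome 17 genes had a median of 0.07.

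**Figure D3:**
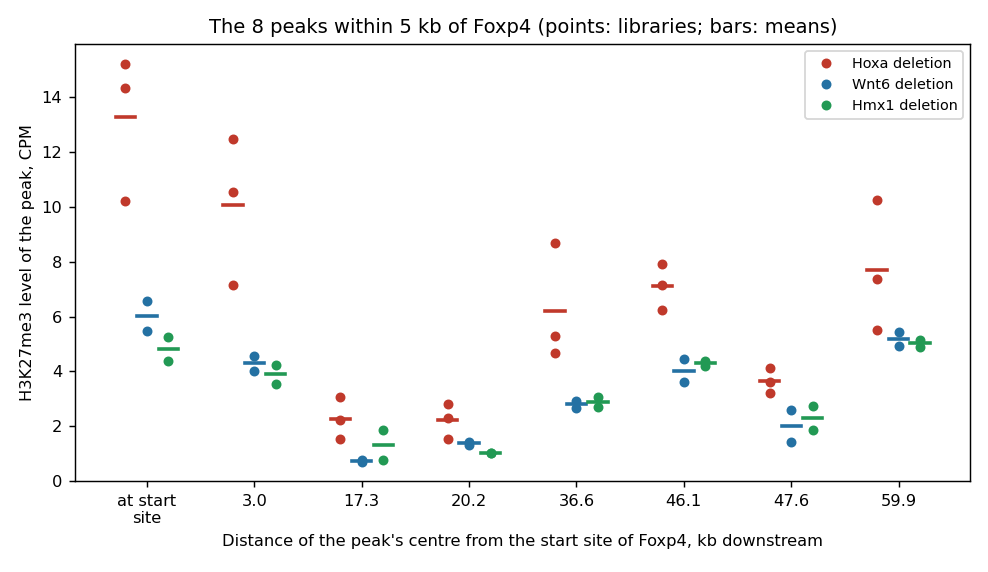
H3K27me3 level in CPM (vertical axis, from 0) of the 8 peaks within 5 kb of Foxp4, ordered by distance of the peak centre from the start site in kb (horizontal axis, not to scale), with points for libraries and bars for the mean of each deletion. The Hoxa deletion mean is the highest at all 8 peaks, and at the start site the Hoxa deletion libraries lie between 10.2 and 15.2 CPM against at most 6.59 CPM elsewhere.

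The other higher genes changed less. Foxa3, an endoderm and liver factor on chromosome 7, had 42.7, 45.8 and 39.0 CPM in the Hoxa deletion, 27.4 and 27.8 CPM in the Wnt6 deletion and 26.4 and 28.5 CPM in the Hmx1 deletion (log2 fold change 0.62 ± 0.09 SE, adjusted p = 4.75e-06). Its start-site peak of 2288 bp had a log2 fold change of 0.68, and all 3 of its peaks were above 0. Foxj2 on chromosome 6 had 69.6, 66.0 and 66.4 CPM in the Hoxa deletion against 53.7, 48.2, 45.8 and 41.8 CPM in the Wnt6 and Hmx1 deletions (0.51 ± 0.08 SE, adjusted p = 1.64e-05). At both genes the Hoxa deletion libraries lay above all others.

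Foxo3 and Foxd3 showed smaller shifts without overlap. Foxo3 had 112, 114 and 113 CPM in the Hoxa deletion against 97.0, 88.9, 94.3 and 88.9 CPM elsewhere (log2 fold change 0.30 ± 0.07 SE, adjusted p = 0.00124). Foxd3 had 263, 246 and 252 CPM in the Hoxa deletion, 191 and 179 CPM in the Wnt6 deletion and 224 and 228 CPM in the Hmx1 deletion (0.31 ± 0.08 SE, adjusted p = 0.00321). The Hmx1 deletion was thus between the other two at Foxd3. Foxj1, the regulator of motile cilia, had 72.6, 72.8 and 66.6 CPM in the Hoxa deletion, 66.7 and 64.8 CPM in the Wnt6 deletion and 47.5 and 50.1 CPM in the Hmx1 deletion (0.29 ± 0.09 SE, adjusted p = 0.0225). Its Hoxa and Wnt6 deletion libraries overlapped, and the call was lost without replicate 1 or 2 of the Hoxa deletion or either replicate of the Hmx1 deletion, with log2 fold changes between 0.22 and 0.28.

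Calls of higher genes depended on abundance over the whole table. When the tested genes were split by mean CPM into 5 groups of equal size, 22.8% of the genes between 17.7 and 67.3 CPM were called higher in the Hoxa deletion, against 9.08% of those above 67.3 CPM. The former range held 6 forkhead genes, of which Foxa3, Foxj1, Foxj2 and Foxp4 were the 4 called higher. With offsets that follow abundance, chosen after seeing the data, Foxj1 was lost at an adjusted p of 0.0795 and the other 5 stayed called. The same offsets added Foxf2 as higher and Foxi1 and Foxn3 as lower, which made 11 calls in all. The part of abundance in the single calls was not tested further. Flanking peaks within 100 kb had unlike medians. The median log2 fold change was 0.36 at Foxo3 (11 peaks), 0.25 at Foxa3 (25 peaks), 0.10 at Foxd3 (7 peaks), 0.05 at Foxj2 (3 peaks) and 0.04 at Foxj1 (12 peaks). An adjusted p under 0.05, without a fold minimum, was reached by 0, 3, 2, 1 and 1 of these peaks, in the same order. The medians alone thus do not sort the genes by whether their flanks changed.

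Foxf1, Foxc2 and Foxl1 lie side by side on chromosome 8, with 28.0 kb between Foxf1 (chr8:121084386-121088154) and Foxc2 and 8.79 kb between Foxc2 and Foxl1, and were lower together in the Hoxa deletion. Foxf1 had 499.6, 474 and 486 CPM there, against 731 and 652 CPM in the Wnt6 deletion and 690 and 741 CPM in the Hmx1 deletion (log2 fold change -0.53 ± 0.06 SE, adjusted p = 8.05e-09). Foxc2, which shapes lymphatic vessels, had 233, 213 and 234 CPM against 328, 292, 335 and 336 CPM (-0.51 ± 0.07 SE, adjusted p = 5.13e-07). Foxl1, a gut mesenchyme factor, had 282, 256 and 259 CPM against 381, 329, 390 and 381 CPM (-0.48 ± 0.07 SE, adjusted p = 1.42e-06). At all 3 genes the Hoxa deletion libraries lay below all others, and all 14 peaks of the 3 genes had a log2 fold change under 0.

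These 3 genes moved as their chromosome did. The 1707 tested genes of chromosome 8 had a median log2 fold change of -0.51 in the Hoxa deletion, and 63.8% of them were called lower. Against that median, Foxf1 stood at -0.02, Foxc2 at 0.01 and Foxl1 at 0.04. After the median of each chromosome was removed from the fit, their log2 fold changes were 0.04, 0.06 and 0.09 with adjusted p = 0.748, 0.635 and 0.439, so that no forkhead gene was called lower, and 5 remained called higher (Foxa3, Foxd3, Foxj2, Foxo3 and Foxp4). Without unedited cells, lower levels in the Hoxa deletion libraries and higher levels in the other 2 deletions cannot be told apart.

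**Figure D4:**
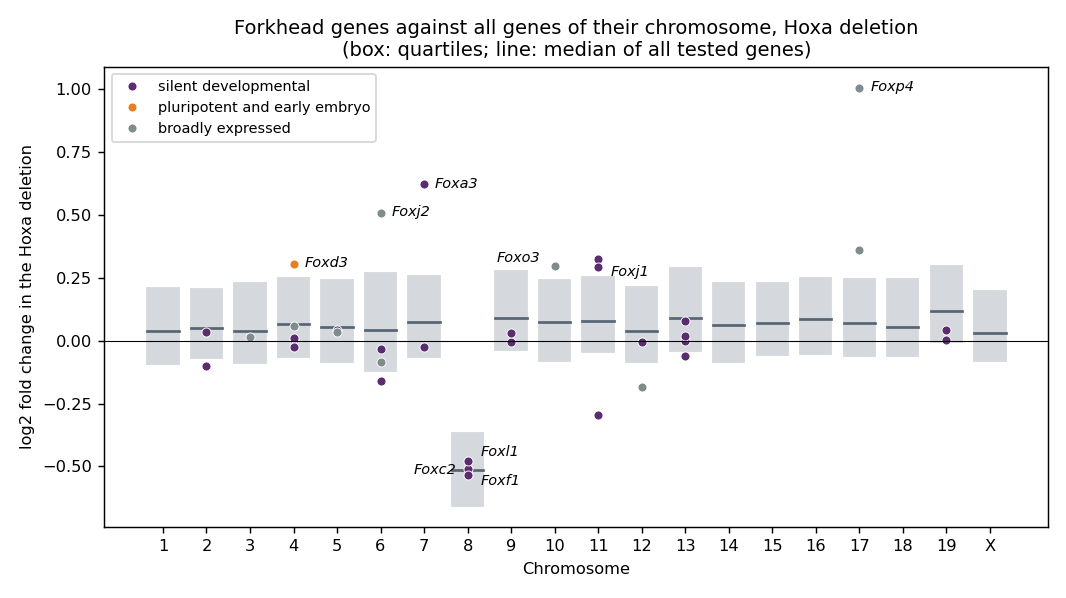
Log2 fold change in the Hoxa deletion against the other deletions (vertical axis) for the 35 forkhead genes with a peak, placed by chromosome (horizontal axis) and coloured by class, over boxes of the quartiles and lines at the median of all tested genes of each chromosome. The genes called in the edgeR fit are named: Foxp4, Foxa3, Foxj2, Foxd3, Foxo3 and Foxj1 sit above the box of their chromosome, while Foxf1, Foxc2 and Foxl1 lie at the chromosome 8 median of -0.51.

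Other pairs of neighbours gave no call. Foxd2 and Foxe3, 15.5 kb apart on chromosome 4, had log2 fold changes of 0.01 ± 0.06 SE and 0.00 ± 0.07 SE in the Hoxa deletion. Foxf2 and Foxq1, 64.8 kb apart on chromosome 13, had 0.08 ± 0.06 and -0.06 ± 0.07. Each of these is smaller than 2 standard errors in size. Of the 20 silent genes that were not called, the heavily marked ones were measured most precisely, as the standard errors of Foxa1, Foxc1, Foxe1 and Foxd2 were all 0.06.

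On the chromosome of the Hoxa deletion itself, 5 forkhead genes lie on chromosome 6, and of the 4 with a peak only Foxj2 was called. Foxi3, an ectodermal regulator 18.7 Mb from the deleted stretch, had 212, 194 and 222 CPM in the Hoxa deletion against 222, 212, 253 and 250 CPM (log2 fold change -0.16 ± 0.07 SE, adjusted p = 0.143). It was called lower in 3 other fits, without replicate 2 of the Wnt6 deletion (-0.21, adjusted p = 0.0216), after all libraries were downsampled to the smallest (-0.21, adjusted p = 0.0266) and against the Hmx1 deletion alone (-0.27, adjusted p = 0.00107), with adjusted p from 0.0560 to 0.779 in the others. Foxp2 at 36.7 Mb had -0.03 ± 0.07 and Foxp1 at 46.7 Mb had -0.08 ± 0.07. Foxj2, the farthest with a peak at 70.5 Mb, had the increase given above, where the chromosome 6 genes had a median of 0.04. Foxm1, at 76.1 Mb, had no peak.

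The Wnt6 deletion gave no call among the 35 forkhead genes, where 0.0536% of all tested genes were called. At an unadjusted p under 0.05 there were 3, against 5.44% of all genes. No forkhead gene lies on chromosome 1, which carries this deletion. The smallest adjusted p was that of Foxd3, whose Wnt6 deletion libraries, at 191 and 179 CPM, were below all 5 others (log2 fold change -0.40 ± 0.08 SE, adjusted p = 0.366). DESeq2 called Foxd3 lower as its only forkhead gene, and 0.358% of the genes to which it gave an adjusted p. No forkhead peak was called, where 0.0497% of all tested peaks were. At an unadjusted p under 0.05 there were 15 of 163, against 5.2% of all tested peaks.

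In the Hmx1 deletion, again 0 of 35 forkhead genes were called, where 0.0536% of all tested genes were, and 8 had an unadjusted p under 0.05, against 12.7% of all genes. Foxj1 came closest, with 47.5 and 50.1 CPM below the 64.8 to 72.8 CPM of the other 5 libraries (log2 fold change -0.49 ± 0.09 SE, adjusted p = 0.0973). DESeq2 called Foxj1 lower as its only forkhead gene, and 2.85% of the genes to which it gave an adjusted p. Without replicate 2 of the Wnt6 deletion, edgeR called Foxj1 and Foxj2 lower. On chromosome 5, which carries this deletion, Foxn4 at 78.9 Mb and Foxk1 at 107 Mb from the stretch had log2 fold changes of -0.01 ± 0.08 and -0.00 ± 0.14 SE, with adjusted p = 0.962 and 0.998. No forkhead peak was called, where 0.0282% of all tested peaks were. At an unadjusted p under 0.05 there were 25 of 163, against 8.96% of all tested peaks. Without replicate 2 of the Wnt6 deletion, 1 peak was called lower, at Foxp4.

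These counts of 0 rest on the pooled comparison, in which the Hoxa deletion libraries are part of the control. With a term for each genotype, 3 of 35 forkhead genes were called in the Wnt6 deletion (Foxd3, Foxf1 and Foxp4), where 2.41% of all genes were, and 8 of 35 in the Hmx1 deletion, where 7.37% were. The 8 were Foxc2, Foxf1, Foxi3, Foxj1, Foxj2, Foxl1, Foxn1 and Foxp4. That fit sets each deletion against the mean of the other 2, so the Hoxa deletion remained part of the control. Between the Wnt6 and Hmx1 deletions alone, the only call was Foxj1, higher in the Wnt6 deletion, where 0.529% of all genes were called either way.

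**Figure D5:**
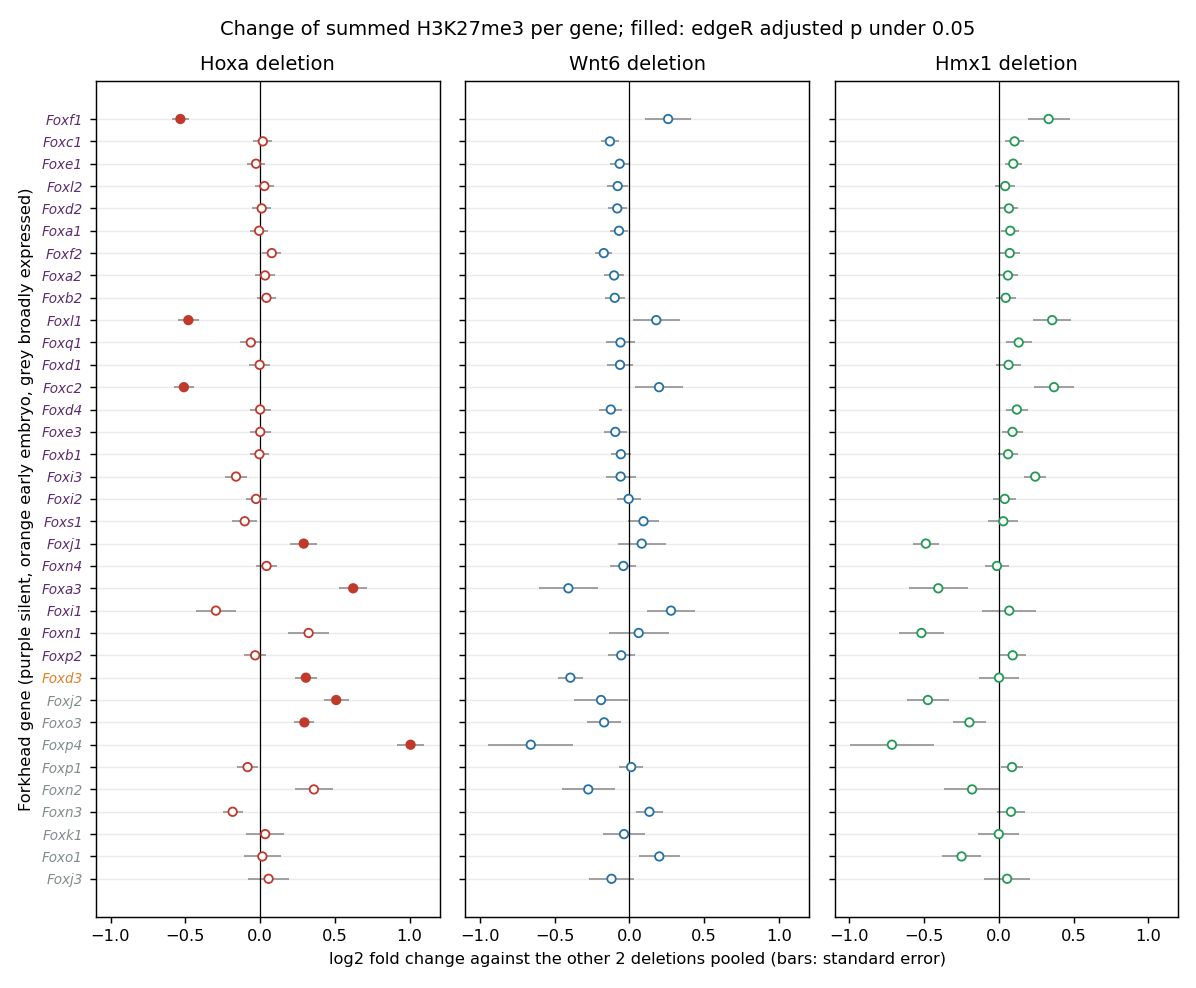
Log2 fold change of summed H3K27me3 (horizontal axis, bars are standard errors) of the 35 forkhead genes with a peak (vertical axis, by class and level) in the Hoxa, Wnt6 and Hmx1 deletions, each against the other 2 pooled, with filled points for an edgeR adjusted p under 0.05. Filled points occur in the Hoxa deletion only, 6 to the right and 3 to the left, and Foxp4 is farthest from 0 in all 3 panels. In the Wnt6 and Hmx1 panels the Hoxa deletion libraries are part of the control. The Foxp4 means were 26.5 CPM in the Wnt6 deletion, 25.6 CPM in the Hmx1 deletion and 52.5 CPM in the Hoxa deletion.

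Genes that work with forkhead factors were taken from lists of 9 hedgehog and endoderm genes and 6 partners and targets of Foxh1. In the Hoxa deletion 1 of the 9 hedgehog and endoderm genes was called higher and 0 lower, where 10.6% of all tested genes were called higher, with a median log2 fold change of -0.02 over the list. The gene called was Gli2, a hedgehog effector upstream of Foxf genes (0.87 ± 0.10 SE). Of the 6 partners and targets of Foxh1, 2 were called higher and 0 lower, with a median of 0.22, beside the same 10.6% of all genes. They were Lefty2, a Nodal inhibitor and Foxh1 target (0.61 ± 0.09 SE), and Smad4, which joins Foxh1 in complexes with Smad2 (0.40 ± 0.12 SE). Smad4, at 16.9 to 24.7 CPM by the means of the deletions, has its mean over the 7 libraries in the 17.7 to 67.3 CPM range where 22.8% of all genes were called higher. Gli2, at 20.4 to 37.4 CPM by the same means, lay in that range too. None of either list was called in the Wnt6 or Hmx1 deletion. In level, the hedgehog and endoderm genes had a median of 7.21 CPM per kb ± 0.401 (SD, n = 7), with Sox17 at 26.6 and Shh at 22.3. Of the genes around Foxh1, Lefty1 had 14.5 CPM per kb and Nodal 0.198.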

How the data were processed

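The authors deposited raw, unnormalized counts per peak for 7 H3K27me3 libraries, all over the same peaks. Whether reads or fragments were counted is not given in the sources used here. The submitters' processing notes name Trimmomatic, Bowtie2, SAMtools, Picard, MACS2, deepTools and build mm10, without versions or settings. How the peak list was made and whether duplicates were removed is not given in the sources used here. The 7 IgG libraries were not analysed here, so no background was subtracted. A gene without a peak may still carry weak signal.

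Peaks within 5 kb of a RefSeq gene body (GRCm38.p6) were summed per gene for all genes. Peak positions are as deposited. The RefSeq table used gives no exons, and strand and start site only where a promoter sequence is listed (25 of the 38 genes). Genes and peaks were filtered with filterByExpr and fitted with edgeR 4.0.16 (glmQLFit, glmQLFTest, limma 3.58.1) in R 4.3.3, with TMM factors, each deletion against the other 2 pooled, and p-values were Benjamini-Hochberg adjusted over all 27982 genes or 74441 peaks tested. Of the peaks, 17 failed the filter. Standard errors were derived from the F statistic. DESeq2 1.42.0 was an alternative. The gene fit was run on simulated counts with planted log2 changes of 2, which are larger than the changes reported here. Recovery of smaller changes and the peak fit were not simulated. Tables and plots were made in Python 3.11.15 with pandas 2.3.3, scipy 1.17.1 and matplotlib 3.10.9. Totals ranged from 6016500 to 36563541 counts per library.

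Per-library values are given for the 3 highest and 3 lowest silent genes, the 2 highest and the lowest broadly expressed gene, Foxd3, Foxh1, called genes (up to 6 per deletion by smallest p; all 9 are given for Hoxa, by this and the other parts of the rule), genes on a deleted chromosome or on chromosome 8, and genes with a called peak. Other genes named were chosen after their values were seen. The genes, their classes, the lists and this rule were chosen with earlier results of these data known. One further list of genes that act on forkhead factors was computed and is not reported here.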

Additional observations from a re-analysis of the deposited data

How the results depend on the processing

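In the Hoxa deletion the count of 9 forkhead genes moved to 5 after chromosome medians were removed and to 1 with the fold minimum of the study, and the 4 called peaks became 29 without that minimum. Leaving out single libraries gave 8 to 10 genes and 3 to 5 peaks. The median change of the 3 chromosome 8 genes turned from -0.51 to 0.0639 after chromosome medians were removed, with Foxc2 at 0.0639, Foxf1 at 0.0401 and Foxl1 at 0.0938, and lay between -0.56 and -0.46 without single libraries. In the Wnt6 deletion the count of 0 genes became 1 in DESeq2, 3 with a term for each genotype, 8 when the Hoxa deletion was the only control and 1 when the Hmx1 deletion was. In the Hmx1 deletion it became 1 in DESeq2, with library totals alone and after chromosome medians were removed, 8 with a term for each genotype, 11 against the Hoxa deletion alone, 1 against the Wnt6 deletion alone and 0 to 2 without single libraries. Its peak count of 0 became 1 with a term for each genotype and 0 to 1 without single libraries. The cause of these shifts was not tested, other than that Hoxa deletion libraries were the whole control in the fits against them. The ratio of class medians, 91.8, was 211 over gene bodies alone, 134 and 55.1 with flanks of 2 and 10 kb, 6.25 per kb of peak and 13.8 at start sites, and 90.6 to 93.4 without single libraries. Libraries with the same replicate number had correlations of deviations from -0.05 to 0.08. This check is weak, because the deviations mirror each other where a deletion has only 2 libraries. The best match of 4 of the 7 libraries had the same number, and replicate 1 was the shallowest library of each deletion. Whether the numbers pair the libraries was therefore not settled. With the replicate number as a block, the Hoxa deletion gave 9 called genes, of which 6 were higher, and 0 in each of the others. In all, 135 recomputed summary values stayed within the limits set, 21 moved and 1 reversed. Of the single genes called, 206 values kept direction and call, 3 reversed and 7 lost the call, all 7 at Foxj1. Chosen after seeing the data were the block on peaks, protein-coding genes alone and offsets that follow abundance. Without unedited cells or further clones, the deletion and its clone cannot be told apart, and the 65 counts of the weakest gene in the shallowest library limit which small changes could be detected.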
